A study of Mus musculus with 18 samples.

Results

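Male mice that had received 12 Gy total abdominal irradiation (TAI) were compared with male control mice, 3 against 3, by sequencing the messenger RNA of the small intestine at day 21. These 6 libraries are a part of 18, which also hold simvastatin-treated irradiated males, irradiated females on a high-fat diet (HFD), irradiated females and female control mice, 3 of each. All mice were C57BL/6 of wild type, and neither their age nor the clock time at which the intestine was taken is given in the sources used here. Expression is given as FPKM, a level per transcript length and per sequenced depth that was made by the authors. The transcripts of each gene were summed, and 11767 of 21928 genes were tested, those that reached 1 FPKM in 3 or more of the 18 libraries. In each group a replicate is 1 library, and the labels do not say whether it came from 1 mouse, so that the p values measure the spread between these libraries.

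The small intestine renews its epithelium from crypts, and ionizing radiation damages the dividing cells there. Its enterocytes absorb nutrients through transporters of the brush border, while goblet cells secrete mucus and Paneth cells secrete antimicrobial peptides. Like most tissues, the gut runs a circadian clock. BMAL1 (encoded by Arntl) pairs with CLOCK or NPAS2 and activates genes through an E-box, PER and CRY proteins repress this pair, REV-ERB proteins (Nr1d1 and Nr1d2) repress Arntl through an element that ROR proteins also bind, and the factors DBP, TEF and HLF act on a D-box. Many transporters and metabolic enzymes of the gut are known to follow this rhythm.

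After TAI in males, 141 genes lay higher and 106 lower than in control mice, which is 1.20% and 0.901% of the genes tested and 2.10% together (limma, Benjamini-Hochberg adjusted p under 0.05). The counts of genes in the lists below can be read against these shares. With quantile normalization the split was 121 higher and 137 lower. The genes that rose most were led by Dbp, Sult6b2, Pck1, Fkbp5, Per3 and Tef, and those that fell most by Slc34a2, Tmem252, Arntl, Lama3 and the near-identical Sprr2a2 and Sprr2a3. Of the 247 genes, 35 rose and 19 fell by at least 1 on the log2(FPKM + 1) scale, which understates the change of genes with a low level. The median log2 fold change was 0.05 over all genes tested, and 1425 genes had an unadjusted p under 0.05. When each of the 6 libraries was left out in turn, 90 genes passed in every one of the 6 fits, 59 higher and 31 lower. The last gene inside the threshold had an adjusted p of 0.0497, and the first outside had 0.0505.

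**Figure D1:**
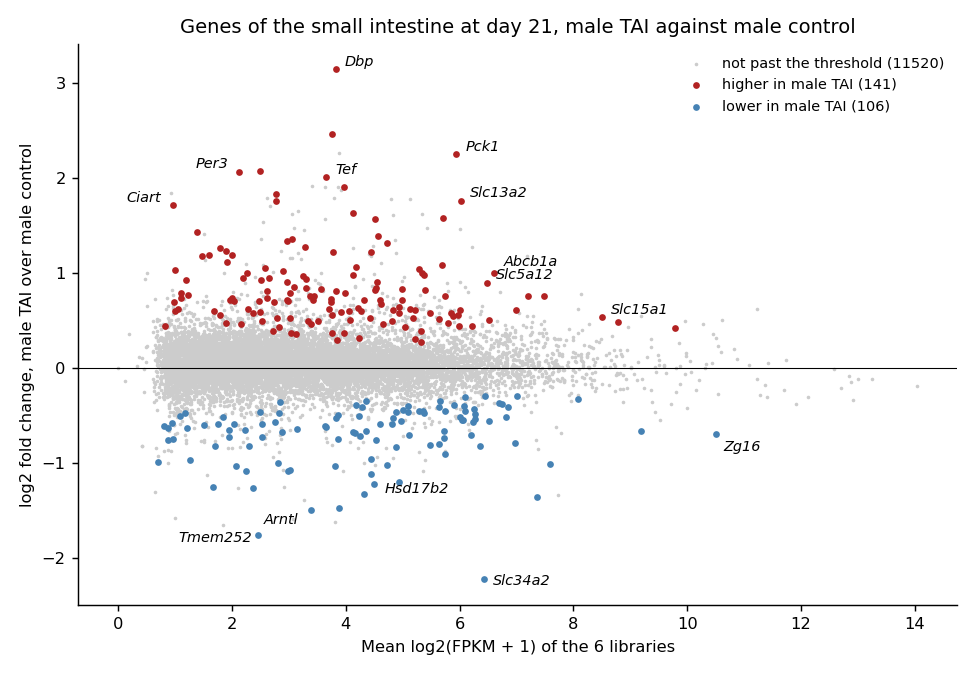
Log2 fold change of male TAI over male control (vertical axis) against the mean log2(FPKM + 1) of the 6 libraries (horizontal axis), 1 point per gene, with 141 genes higher (red) and 106 lower (blue) past an adjusted p of 0.05. Dbp lies highest at 3.15 and Slc34a2 lowest at -2.23, while Zg16 is the most abundant gene that fell.

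The libraries were of small intestine: none of the 10 epithelial markers tested, such as Vil1, Fabp2 and Sis, passed the test. Their summed level was 8104 to 9687 FPKM in the irradiated and 8368 to 8826 FPKM in the control mice, while 12 markers of other organs summed to at most 0.637 FPKM in any of the 6 libraries. A principal component analysis of the 6 libraries gave a first component of 43.4% of the variance, with scores of -1.12, -10.9 and -26.6 for TAI replicates 1 to 3 and 20.3, -0.38 and 18.7 for control replicates 1 to 3. TAI replicate 1 and control replicate 2 therefore lay side by side on it. In control replicate 3 the 10 most abundant genes held 24.2% of all FPKM, against 17.5% to 19.9% in the other male libraries compared, and its mitochondrially encoded respiratory chain genes summed to 105745 FPKM, against 69713 to 82661 FPKM in the other 5 libraries. The part of these features in the results below was not tested, beyond leaving each library out in turn.

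Genes of the circadian clock stood out by their number and by the size of their changes. Of 24 clock genes tested, 12 were higher and 2 were lower in irradiated male mice, and 10 did not pass, against 1.20% and 0.901% of all genes. The core loop had 6 of 17 genes higher (Per1, Per2, Per3, Cry2, Nr1d2 and Ciart) and 2 lower (Arntl and Npas2), with a median log2 fold change of 0.27. The output genes had 6 of 7 higher (Dbp, Tef, Hlf, Usp2, Noct and Wee1), with a median of 1.003, against 0.05 over all genes. The lists were drawn up with these results known, so that their counts are a description.

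The promoters of 4 of these genes are shown as examples that hold an element the clock factors are known to use. RefSeq promoters (GRCm38.p6, from 250 bases before to 50 bases after a transcription start) were listed for 12 of the 14 genes, and Per2 and Wee1 were not among them. They were searched on both strands for the E-box CACGTG, which is its own reverse complement, for the D-box TTATGTAA and for TAGGTCA, the end of the element that REV-ERB and ROR proteins bind. They occur in 7.15%, 0.938% and 2.61% of all 32851 RefSeq promoters. The 12 genes had 15 promoters, 2 each for Arntl, Per1 and Tef. The E-box was found in 4 of the 15 (1 of Per1, 1 of Ciart and both of Tef), the D-box in 1 (Per3) and TAGGTCA in 1 (Arntl), with no overlap between motifs. The other promoters of Per1 and Arntl hold none of the 3 motifs and are not shown. Both promoters of Tef, with 1 E-box each, are not shown either. Sequences are written 5′ to 3′ on the strand of the gene, and capitals mark these elements.
Ciart promoter, chr3:95882179-95882478, minus strand: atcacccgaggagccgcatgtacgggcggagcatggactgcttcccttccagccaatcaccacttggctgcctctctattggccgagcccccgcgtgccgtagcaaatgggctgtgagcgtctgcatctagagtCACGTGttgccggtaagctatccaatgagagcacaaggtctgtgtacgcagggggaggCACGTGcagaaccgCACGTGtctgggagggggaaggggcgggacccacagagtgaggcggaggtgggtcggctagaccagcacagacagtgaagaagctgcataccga
Per1 promoter, chr11:69098699-69098998, plus strand: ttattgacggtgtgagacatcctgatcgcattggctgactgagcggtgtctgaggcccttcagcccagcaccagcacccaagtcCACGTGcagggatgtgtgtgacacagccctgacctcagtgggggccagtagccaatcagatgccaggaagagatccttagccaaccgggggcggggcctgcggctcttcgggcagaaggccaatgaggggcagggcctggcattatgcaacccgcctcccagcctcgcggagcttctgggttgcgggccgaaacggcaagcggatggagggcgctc
Per3 promoter, chr4:151044616-151044915, minus strand: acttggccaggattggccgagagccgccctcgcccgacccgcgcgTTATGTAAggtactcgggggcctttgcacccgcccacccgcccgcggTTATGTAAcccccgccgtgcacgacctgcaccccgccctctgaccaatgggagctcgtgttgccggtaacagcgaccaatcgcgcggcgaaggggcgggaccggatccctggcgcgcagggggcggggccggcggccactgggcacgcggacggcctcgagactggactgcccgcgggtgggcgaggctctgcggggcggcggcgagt
Arntl promoter, chr7:113207261-113207560, plus strand: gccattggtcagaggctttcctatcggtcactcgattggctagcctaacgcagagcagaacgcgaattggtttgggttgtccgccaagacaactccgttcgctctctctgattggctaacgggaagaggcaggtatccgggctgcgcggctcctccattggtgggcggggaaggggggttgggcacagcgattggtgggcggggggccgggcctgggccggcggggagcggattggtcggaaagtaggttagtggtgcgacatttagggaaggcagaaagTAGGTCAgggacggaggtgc
Ciart holds 3 E-boxes, Per1 holds 1, Per3 holds 2 D-boxes and Arntl holds 1 TAGGTCA, 30 bases after its start. A match of letters is not a measured binding site.

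Dbp, a transcription factor on chromosome 7 (GENCODE M21, GRCm38, 45705088 to 45710203), had 35.4, 40.1 and 49.0 FPKM in irradiated male mice, against 3.95, 4.01 and 3.35 FPKM in male control mice. The groups were far apart, with means of 41.5 ± 6.93 and 3.77 ± 0.366 FPKM (SD, n = 3 each), a ratio of 11 and a log2 fold change of 3.15 ± 0.32 (SE, adjusted p = 6.05e-05 from limma). Both of its transcripts were higher, and 18% of its exon bases lie opposite exons of Sphk2, from which reads cannot be told apart without strand. Its relative Tef had 20.7, 23.4 and 29.4 FPKM after TAI, against 5.86, 5.53 and 4.50 FPKM in control mice (log2 fold change 2.01 ± 0.17). Hlf, the third factor of this family, was expressed at a lower level, with 2.76, 2.71 and 4.64 FPKM against 0.509, 0.697 and 0.571 FPKM (1.43 ± 0.15). All 3 factors of this family were thus higher.

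Repressors of the loop were among the genes that rose. Per3, on chromosome 4 (151003652 to 151044665), had 6.39, 6.66 and 11.6 FPKM after TAI, against 1.23, 1.18 and 0.991 FPKM in control mice, a ratio of 7.23 between the means. Per2 had 9.30, 10.3 and 17.2 FPKM, against 2.46, 2.48 and 2.85 FPKM in control mice. Per1, the gene with the E-box shown above, had 10.03, 11 and 14.2 FPKM, against 3.00, 2.64 and 2.55 FPKM in control mice. The log2 fold changes of Per1, Per2 and Per3 were 1.76, 1.84 and 2.07, with SE of 0.16, 0.18 and 0.18, and TAI replicate 3 was the highest library of each. Ciart, a repressor with 3 E-boxes in its promoter, had 1.87, 2.27 and 3.70 FPKM after TAI, against 0.0520, 0.0968 and 0.0871 FPKM in control mice, where it was nearly absent, a log2 fold change of 1.71 ± 0.24. Cry2 averaged 6.88 ± 0.990 FPKM after TAI and 3.12 ± 0.292 FPKM in control mice, and Nr1d2, which encodes REV-ERB beta, averaged 32.1 ± 2.11 and 13.3 ± 2.13 FPKM (SD, n = 3 each). Adjusted p ranged between 3.10e-05 for Per3 and 0.00147 for Ciart.

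Arntl and Npas2, activators of the loop, moved the other way. Arntl, on chromosome 7 (113207465 to 113314126), had 6.64, 4.82 and 4.36 FPKM in irradiated male mice, against 17.0, 13.4 and 19.5 FPKM in male control mice. It was lower in each irradiated library than in any control library, with a log2 fold change of -1.49 ± 0.25 (adjusted p = 0.00464). Npas2, which can replace CLOCK as its partner, had 17.2, 15.6 and 9.67 FPKM after TAI, against 31.8, 26.9 and 35.4 FPKM in control mice (-1.12 ± 0.18, adjusted p = 0.00418). Clock itself had 21.7 to 23.7 FPKM after TAI and 19.5 to 26.5 FPKM in control mice, and its log2 fold change of -0.04 ± 0.12 did not pass.

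Further outputs of the clock were higher by smaller amounts. Usp2, a ubiquitin protease, had 22.9, 21.1 and 26.7 FPKM after TAI, against 10.5, 11.9 and 11.8 FPKM in control mice, and Wee1, a kinase that holds back mitosis, had 5.23, 4.87 and 7.58 FPKM, against 1.70, 3.12 and 2.51 FPKM. The change of Noct, a phosphatase of NADPH, was 0.76 ± 0.17 on the log2 scale (adjusted p = 0.0296). It passed without control replicate 1 (0.0323) and not without each of the other 5 libraries (0.0590 to 0.145). Nr1d1, which encodes REV-ERB alpha, had 42.4, 70.6 and 43.2 FPKM after TAI, against 32.5, 28.4 and 27.2 FPKM in control mice, and missed the threshold (adjusted p = 0.0542). Nfil3, a repressor that competes at the D-box, had 3.38, 1.9996 and 2.21 FPKM, against 5.48, 3.88 and 5.76 FPKM in control mice (adjusted p = 0.107). Cry1 had 6.14 to 6.65 FPKM after TAI, within the 5.52 to 6.74 FPKM of control mice. Rora, Bhlhe40, Csnk1d and Csnk1e did not pass either, and Bhlhe41 was below the filter. All 13 clock genes past the threshold other than Noct passed in each of the 6 fits that left out 1 library.

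**Figure D2:**
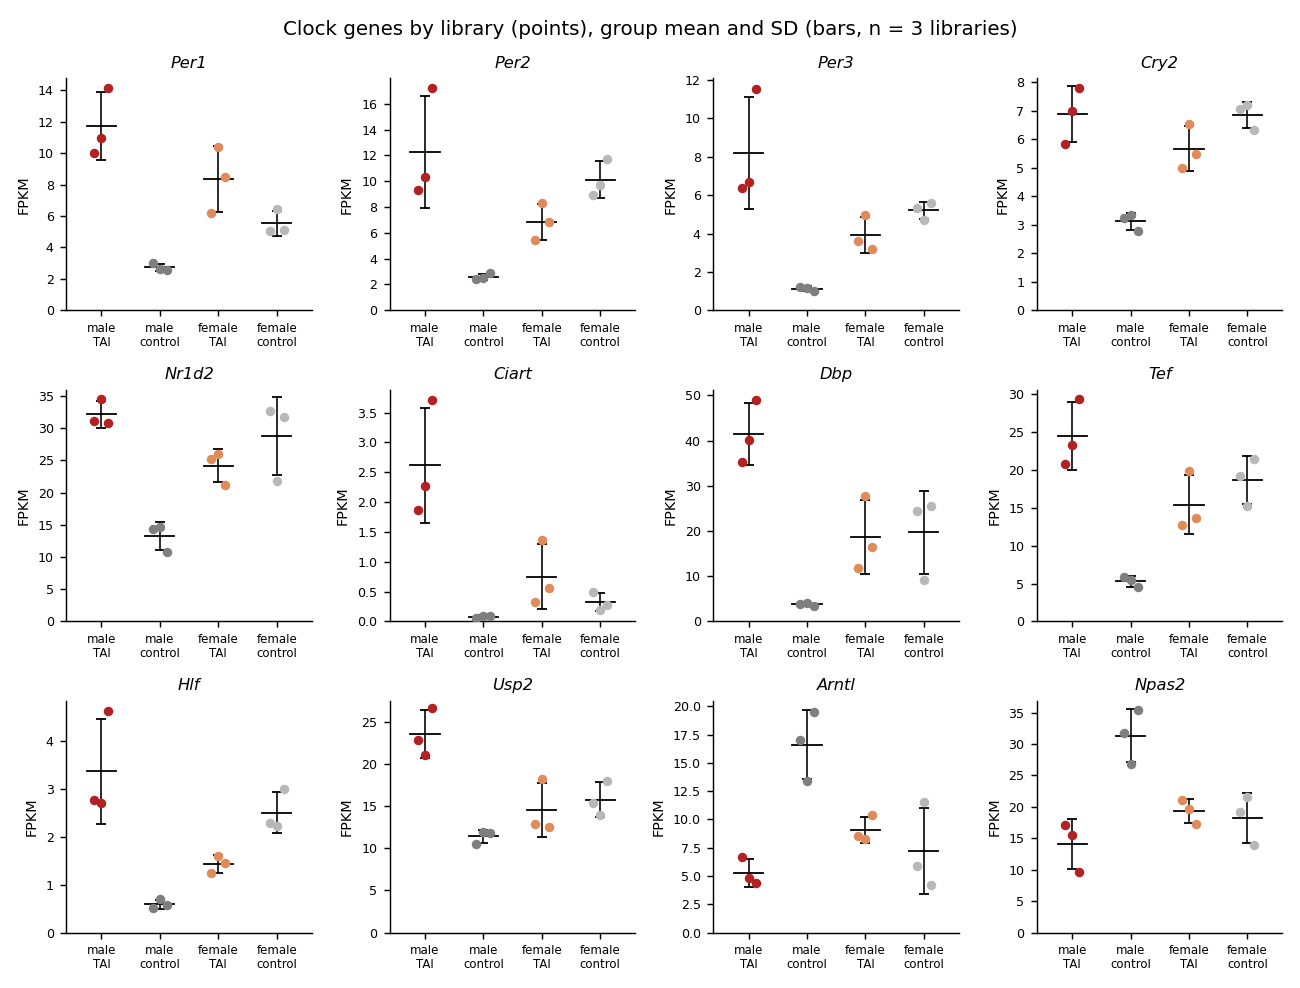
FPKM (vertical axes, from 0) of 12 clock genes in each library (points), with group means and SD (bars, n = 3), for male TAI, male control, female TAI and female control mice. In 10 panels the male TAI libraries lie above the male control libraries and in the panels of Arntl and Npas2 below them, while the female groups lie closer to each other.

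Targets of the glucocorticoid receptor changed in a few members. Of 14 tested, Sgk1, Fkbp5 and Tsc22d3 were higher, none was lower and 11 did not pass, against 1.20% of all genes higher and 0.901% lower. The median log2 fold change of the 14 was 0.39. Sgk1, a kinase that stimulates sodium transport, had 87.7, 68.0 and 119 FPKM in irradiated male mice, against 33.1, 25.3 and 29.2 FPKM in control mice (log2 fold change 1.59 ± 0.28, adjusted p = 0.00674). The groups did not overlap, but the transcripts that make up this sum differed between libraries of 1 group: one transcript had 71.2 and 52.0 FPKM in TAI replicates 1 and 2 and 0.747 FPKM in replicate 3, where another had 84.7 FPKM. Fkbp5, a chaperone that restrains the receptor, had 6.14, 10.6 and 17.5 FPKM, against 1.87, 2.19 and 1.21 FPKM in control mice (2.08 ± 0.46, adjusted p = 0.0271). It passed without TAI replicate 1 (0.0231) and not without each of the other 5 libraries (0.0527 to 0.156). Tsc22d3, the anti-inflammatory GILZ, changed by 0.62 ± 0.14 (adjusted p = 0.0302) and passed likewise without TAI replicate 1 (0.0273) and not without each of the others (0.0592 to 0.171). The count was therefore 1 of 14, Sgk1, in 5 of the 6 fits. The metallothionein Mt1 had 69.6, 65.4 and 77.3 FPKM after TAI, against 34.7, 23.1 and 18.7 FPKM in control mice, and did not pass (adjusted p = 0.105). Klf15, a factor of amino acid metabolism that glucocorticoids induce, was named after its values were seen, and had 2.98, 4.64 and 5.87 FPKM, against 0.973, 1.48 and 1.28 FPKM (adjusted p = 0.0066).

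Among enzymes of fuel metabolism, Pck1 changed most. It encodes the cytosolic phosphoenolpyruvate carboxykinase of gluconeogenesis, and had 105, 131 and 171 FPKM after TAI, against 30.0, 28.7 and 23.2 FPKM in control mice. The ratio of the means was 4.97 and the log2 fold change 2.25 ± 0.25 (adjusted p = 0.000181), and it was the 1 of 15 genes of gluconeogenesis and fasting that passed. Glud1, the mitochondrial glutamate dehydrogenase, averaged 193 ± 31.8 FPKM after TAI and 114 ± 17.5 FPKM in control mice (SD, n = 3 each, adjusted p = 0.0315), passed without control replicate 2 (0.0441) and not without each of the others (0.0519 to 0.180). Ppara, the fatty acid sensor, was the 1 of 25 genes of fatty acid oxidation that passed, with 12.3, 15.6 and 21.5 FPKM, against 9.19, 8.84 and 10.7 FPKM (adjusted p = 0.0347). It passed without TAI replicate 1 (0.0109) and control replicate 3 (0.0482) and not without each of the other 4 libraries (0.0942 to 0.175). No gene of the lists of cholesterol synthesis (25 tested), fatty acid synthesis (17) or glycolysis (19) passed, with medians of 0.08, 0.09 and 0.04.

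Of 10 genes listed as carboxylate transporters, 4 were higher and none was lower (median 0.22), against 1.20% of all genes higher. The list was drawn up with earlier results known and also holds carriers of sulfate and vitamin C. Slc13a2, the citrate and succinate transporter of the brush border (chromosome 11, 78397087 to 78422217), had 110.1, 106 and 142 FPKM in irradiated male mice, against 36.4, 33.2 and 33.0 FPKM in control mice (1.76 ± 0.17, adjusted p = 5.13e-05). Its relative Slc13a1, which carries sulfate, had 38.5, 35.2 and 41.2 FPKM, against 9.60, 12.9 and 14.8 FPKM (1.57 ± 0.29, adjusted p = 0.00955, but 0.0542 without TAI replicate 3 and 0.0566 without control replicate 1). Slc5a12, a sodium-coupled transporter of lactate, had 113, 126 and 123 FPKM after TAI, against 65.2, 67.7 and 59.4 FPKM in control mice (0.90 ± 0.12, adjusted p = 0.000794). Slc23a1, which takes up vitamin C, averaged 29.9 ± 1.39 FPKM after TAI and 18.4 ± 2.15 FPKM in control mice (SD, n = 3 each, adjusted p = 0.00952). The 4 did not overlap between the groups, but they were picked by the test, so that this adds no support. The other 6 members, such as the monocarboxylate transporter Slc16a1, did not pass.

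Single members of other lists of uptake genes of the enterocyte were higher as well. The peptide transporter Slc15a1 had 476, 402 and 429.6 FPKM after TAI, against 337, 289 and 276 FPKM in control mice (0.54 ± 0.11, adjusted p = 0.0131). It passed without TAI replicate 2 and without control replicate 1 and not without each of the other 4 libraries (0.0514 to 0.0597). Of 15 amino acid and peptide transporters, Slc15a1 and Slc7a15 were higher and none was lower, against 1.20% of all genes higher. The median over this list was 0.28. Slc7a15 passed without TAI replicate 1 (0.0268) and control replicate 1 (0.0179) and not without each of the others (0.102 to 0.189). Slc2a5, which carries fructose, had 57.8, 56.8 and 56.5 FPKM, against 26.9, 29.9 and 28.6 FPKM (0.98 ± 0.22, adjusted p = 0.0279). The groups were narrow and apart, yet the call was lost without any 1 of the 6 libraries (0.0596 to 0.109). Slc2a5 was the 1 of 11 genes of sugar digestion and uptake that passed. The median of these 11 was 0.05, with 7 above 0 and 4 below. The peptidase Enpep had 538, 475 and 549 FPKM, against 367, 392 and 355 FPKM in control mice (adjusted p = 0.00674), and was the 1 of 13 brush border peptidases that passed. Of the 13, 8 had a log2 fold change above 0 and 5 below. Atp1b1, the beta subunit of the sodium pump, had 1080.4, 966 and 1004 FPKM, against 728, 792 and 752 FPKM (adjusted p = 0.0315, and 0.0549 to 0.132 without any 1 library), and 18.7% of its exon bases lie opposite exons of Nme7.

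Phosphate carriers moved in both directions. Slc34a2, a sodium-phosphate cotransporter on chromosome 5 (53038081 to 53071664), was the gene that fell most, with 84.5, 32.3 and 20.7 FPKM after TAI, against 243, 150.0 and 171 FPKM in control mice. Its log2 fold change was -2.23 ± 0.41 (adjusted p = 0.00851, and 0.0521 without TAI replicate 3). Slc17a4, an anion carrier of the same tissue named after its values were seen, averaged 17.7 ± 1.68 FPKM after TAI and 37.1 ± 5.63 FPKM in control mice (SD, n = 3 each, adjusted p = 0.00268). Slc20a1, another phosphate carrier, was instead higher, at 8.64, 8.85 and 9.67 FPKM, against 5.10, 5.56 and 4.66 FPKM (adjusted p = 0.0305), but in no fit that left out 1 library (0.0529 to 0.143). Of the 15 genes of phosphate, sodium and anion transport, 2 were higher, 1 was lower and 12 did not pass, against 1.20% and 0.901% of all genes.

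**Figure D3:**
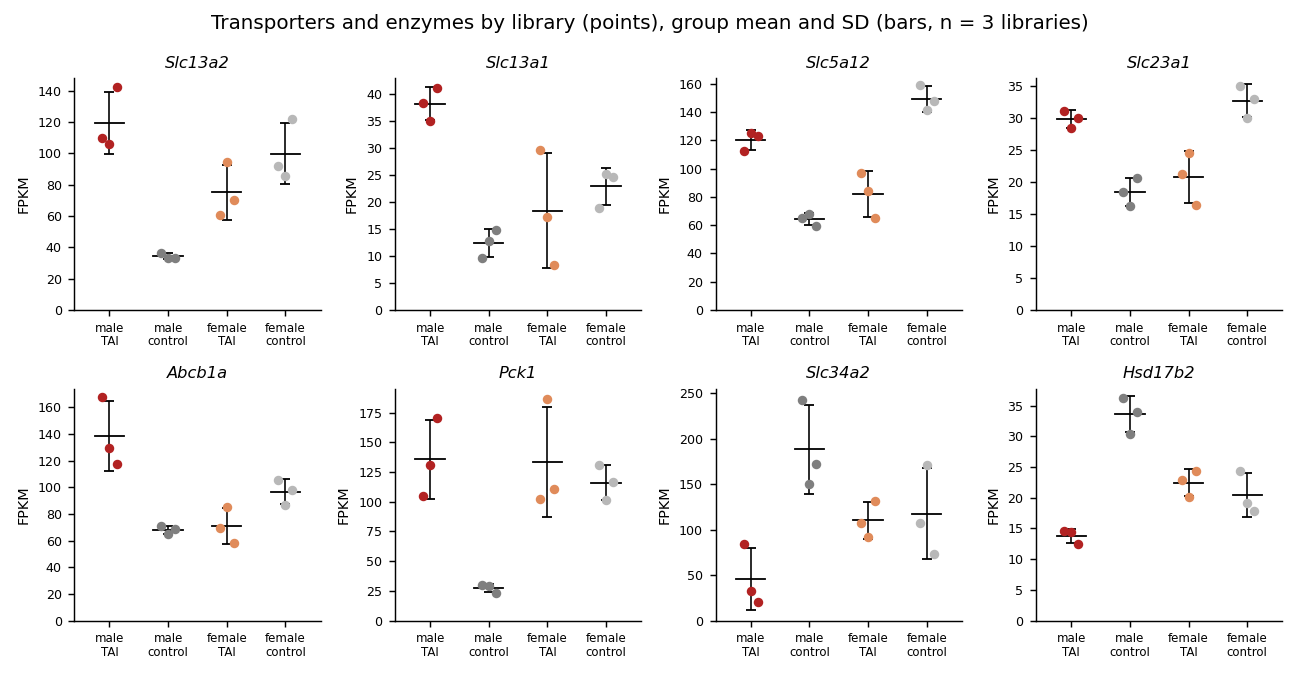
FPKM (vertical axes, from 0) of 8 transporters and enzymes in each library (points), with group means and SD (bars, n = 3), for male TAI, male control, female TAI and female control mice. The male TAI libraries lie above the male control libraries in 6 panels and below them for Slc34a2 and Hsd17b2, and Slc5a12 and Slc23a1 run the other way in female mice.

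Enzymes of steroid and drug handling changed in single genes. Hsd17b2, which oxidizes estradiol and testosterone, had 14.6, 14.4 and 12.5 FPKM in irradiated male mice, against 36.2, 30.4 and 34.0 FPKM in control mice (-1.22 ± 0.12, adjusted p = 6.05e-05). The aldo-keto reductases went up: Akr1c19 had 28.5, 26.4 and 33.2 FPKM, against 4.90, 8.85 and 7.97 FPKM (1.91 ± 0.33), and Akr1c14, which reduces steroid hormones, had 11.8, 12.2 and 12.8 FPKM, against 3.52, 4.93 and 4.19 FPKM (1.36 ± 0.22). These genes have near copies, between which reads may have been split. Hsd3b3, of the 3 beta-hydroxysteroid dehydrogenase family, was also higher (5.28 ± 0.201 and 3.23 ± 0.678 FPKM, SD, n = 3 each, adjusted p = 0.0110, and 0.0605 without TAI replicate 3). Of 14 steroid-converting enzymes 3 rose and 1 fell, against 1.20% and 0.901% of all genes. The largest change of any conjugating enzyme was that of the sulfotransferase gene Sult6b2, with 34.2, 30.5 and 27.5 FPKM, against 2.46, 5.54 and 7.30 FPKM (2.47 ± 0.48, adjusted p = 0.0121, and 0.0700 without control replicate 1). Gsta3, a glutathione transferase, averaged 4.69 ± 0.328 FPKM after TAI and 1.41 ± 0.0574 FPKM in control mice (SD, n = 3 each), and was the 1 of 19 genes of phase II conjugation that passed. Adh1, the alcohol and retinol dehydrogenase, was the 1 of 26 genes of phase I metabolism that passed (235 ± 44.1 and 137 ± 10.5 FPKM, SD, n = 3 each, adjusted p = 0.0271). It passed without TAI replicate 1 (0.0167) and not without each of the other libraries (0.0547 to 0.155).

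Both mouse genes of the multidrug transporter MDR1, whose messenger RNA the study followed by RT-PCR, were higher. Abcb1a had 168, 129 and 118 FPKM after TAI, against 71.0, 65.0 and 68.4 FPKM in control mice (0.996 ± 0.15, adjusted p = 0.00237). Abcb1b was expressed at a lower level, with 4.39, 4.11 and 3.50 FPKM, against 2.18, 2.07 and 1.86 FPKM (0.72 ± 0.11, adjusted p = 0.00308), and the sequences of both are close. They were the 2 of 12 multidrug transporters that passed, against 1.20% of all genes higher. The other genes given here that the study followed, as RNA by RT-PCR or as protein by ELISA, did not pass or were below the filter. The glucose transporter Slc2a1 (GLUT1) had 3.03, 3.26 and 2.89 FPKM, against 3.14, 3.19 and 2.48 FPKM, and Nfe2l2 (NRF2) had 104, 103 and 108 FPKM, against 96.8, 108 and 118 FPKM. Pgk1 had 142, 132 and 134 FPKM, against 102, 126 and 124 FPKM (adjusted p = 0.350). Tnf lay at 0.480 to 1.09 FPKM after TAI and 0.628 to 1.52 FPKM in control mice. Il6 and Lcn2 were below the filter, with at most 0.145 and 1.16 FPKM in these 6 libraries. For Tnf, Il6 and Lcn2 the study measured protein by ELISA, the last in fecal pellets, so that the RNA here is another measure. The paper describes Nrf2 expression as heightened by radiation and reduced by simvastatin in males, whereas Nfe2l2 did not pass here. The rise of Glut1, MDR1 and Pgk1 that it reports in males came with simvastatin after TAI, a comparison not made here.

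Genes of goblet cells, lymphocytes, mast cells and eosinophils fell in part. Medians of other secretory and immune lists ran both ways, such as 0.32 for macrophages and dendritic cells and -0.25 for tuft cells. The macrophage and dendritic cell list summed to 194, 224 and 240 FPKM after TAI. In control mice it summed to 209, 190 and 138 FPKM, lowest in control replicate 3. Of 17 goblet cell genes, 3 were lower, none was higher and 14 did not pass, against 0.901% of all genes lower. The median was -0.31 against 0.05 over all genes, and 8 of the 17 had an unadjusted p under 0.05. The log2 fold change was below 0 for 13 of them and above 0 for 4, up to 0.80. Zg16, a lectin of the mucus, had 1207, 1102 and 1107 FPKM in irradiated male mice, against 2093, 1852 and 1623 FPKM in control mice (-0.70 ± 0.13, adjusted p = 0.0111). Clca1, a protease of mucus, had 166, 129.8 and 113 FPKM, against 329, 292 and 211 FPKM (-1.01 ± 0.20, adjusted p = 0.0122), and the mucin Muc2 had 477, 454 and 445 FPKM, against 929.9, 700.0 and 597 FPKM (-0.67 ± 0.15, adjusted p = 0.0315). The calls of all 3 depended on the libraries. Zg16 and Clca1 missed the threshold without TAI replicate 2 (0.0508 and 0.0517), TAI replicate 3 (0.0578 and 0.0836) and control replicate 1 (0.0650 and 0.0701), and Muc2 without every library but control replicate 3 (0.0642 to 0.149). The list's count was 0 in these 3 fits and in a fit of the 6 libraries alone. In bulk tissue, fewer goblet cells and less RNA per cell cannot be told apart. Spdef and Agr2, which specify and serve this lineage, had log2 fold changes of 0.03 and -0.05.

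Of 20 genes of T cells and intraepithelial lymphocytes, the receptor chain Klrd1 and the surface protein Cd7 were lower, against 0.901% of all genes. The median over the list was -0.41, and 9 of the 20 had an unadjusted p under 0.05. Klrd1 had 1.90, 0.889 and 0.590 FPKM after TAI, against 5.42, 4.12 and 2.60 FPKM in control mice (-1.25 ± 0.23, adjusted p = 0.00797, and 0.0545 without TAI replicate 3). Cd7 had 7.64, 4.49 and 2.71 FPKM, against 15.2, 11.1 and 7.37 FPKM, so that the groups overlapped (adjusted p = 0.0443, and 0.223 without TAI replicate 3, 0.196 without control replicate 1, 0.137 without TAI replicate 2 and 0.111 without control replicate 2). The list summed to 205, 131 and 106 FPKM in the irradiated mice and 325, 234 and 131 FPKM in control mice. Mcpt1, a mast cell protease of the mucosa, was nearly absent after TAI, with 0.392, 0 and 0.107 FPKM, against 1.64, 1.37 and 0.950 FPKM in control mice (adjusted p = 0.00278). Siglecf, an eosinophil receptor, was the other of 4 such genes that fell, against 0.901% of all genes. It had 0.913 ± 0.117 FPKM after TAI and 1.67 ± 0.266 FPKM in control mice (SD, n = 3 each, adjusted p = 0.0474). It passed without control replicate 3 (0.0331) and not without each of the others (0.0801 to 0.201).

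Of 27 interferon-induced genes tested, Gbp3 and Gbp7 were higher and none was lower, against 1.20% of all genes higher. The median was 0.46. Gbp3, a guanylate-binding protein of cell-autonomous defense, had 12.7, 13.3 and 11.9 FPKM after TAI, against 6.13, 5.78 and 6.48 FPKM in control mice (0.94 ± 0.17, adjusted p = 0.00816). Gbp7 had 14.6, 14.5 and 10.9 FPKM, against 8.03, 7.01 and 7.12 FPKM (adjusted p = 0.0131, and 0.0569 and 0.0696 without TAI replicates 1 and 2). The genes of this family are near copies of each other. Ifi27l2a, an interferon-induced gene that is not on this list, had 21.8, 25.5 and 46.5 FPKM, against 8.20, 13.2 and 6.34 FPKM (1.64 ± 0.30, adjusted p = 0.00797). Isg15 and Ifit1, typical targets of type I interferon, had log2 fold changes of 0.17 and 0.20. The list summed to 1069 to 1374 FPKM after TAI and 826 to 1149 FPKM in control mice. Irgm1, a GTPase named after its values were seen, had 58.9, 56.0 and 54.2 FPKM, against 26.7, 27.2 and 29.4 FPKM (adjusted p = 0.0069).

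The other genes with large falls have diverse roles. Tmem252, a membrane protein, had 2.22, 2.90 and 1.12 FPKM in irradiated male mice, against 8.55, 7.73 and 11.4 FPKM in control mice (-1.76 ± 0.25, adjusted p = 0.00149). Lama3, a laminin chain of the basement membrane, had 8.52, 10.2 and 5.47 FPKM, against 29.4, 19.6 and 22.7 FPKM (-1.48 ± 0.23). Atpaf1, which assembles the mitochondrial ATP synthase, had 2.84, 1.54 and 2.78 FPKM, against 7.39, 7.11 and 6.55 FPKM (-1.26 ± 0.13), and was the 1 of 23 nuclear genes of the respiratory chain that passed. Dio1, which activates thyroid hormone, had 22.6, 20.9 and 14.7 FPKM, against 56.7, 41.3 and 39.4 FPKM (-1.20 ± 0.21), and Bok, of the BCL2 family of apoptosis regulators, had 2.28, 2.67 and 1.86 FPKM, against 7.30, 4.56 and 6.18 FPKM (-1.09 ± 0.17). All 5 passed in each of the 6 fits without 1 library. Sprr2a2, a small proline-rich protein that microbes induce, fell by 1.36 on the log2 scale (114 ± 58.6 and 268 ± 63.3 FPKM, SD, n = 3 each, adjusted p = 0.0484), and passed without TAI replicate 1 (0.0184) and not without each of the other 5 libraries (0.0557 to 0.176).

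Among lists that bear on radiation damage, none of 21 p53 targets, 18 DNA repair genes or 31 cell cycle genes passed at day 21, with medians of 0.03, 0.18 and 0.38. At an unadjusted p under 0.05, 3 p53 targets were higher and 5 lower, 2 cell cycle genes were higher and no DNA repair gene passed. All 18 DNA repair genes had a log2 fold change above 0 (0.02 to 0.38). Their sums were 66.0, 83.5 and 97.6 FPKM after TAI and 58.6, 92.8 and 59.4 FPKM in control mice. Of the 20 stem cell and Wnt target genes, Ly6a, a surface antigen also known as Sca-1, was higher, at 20.9, 15 and 9.02 FPKM, against 6.59, 4.52 and 4.88 FPKM (adjusted p = 0.0202). It passed without TAI replicate 3 and without control replicate 1 and not without each of the others (0.0647 to 0.0797). Herpud1, a part of endoplasmic reticulum-associated degradation, was the 1 of 22 genes of endoplasmic reticulum stress and ATF4 that passed, at 63.4, 74.5 and 87.3 FPKM, against 39.8, 32.9 and 31.4 FPKM (1.09 ± 0.13, adjusted p = 0.000215). No NRF2 target of 12 passed.

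The 14 Paneth cell genes all had a log2 fold change above 0, with a median of 1.19, but none passed (smallest adjusted p = 0.417) and none had an unadjusted p under 0.05. Lysozyme, Lyz1, had 210.1, 200.3 and 247 FPKM in irradiated male mice, against 70.6, 177 and 70.6 FPKM in control mice, and the defensin gene Defa24 had 126, 90.9 and 134 FPKM, against 40.5, 70.0 and 36.4 FPKM. Control replicate 2 was the highest control library in both. The same library stood apart from the other control libraries in the sums of further lists, DNA repair among them. Cell cycle genes summed to 176, 223 and 279 FPKM after TAI and 125, 238 and 153 FPKM in control mice. The 31 cytosolic ribosomal protein genes summed to 3991, 4509 and 6433 FPKM, against 3484, 5361 and 3494 FPKM. Of 31 genes in each of the cell cycle and ribosomal lists, 30 had a log2 fold change above 0, and none passed.

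Junction and signaling genes changed in single members. Cldn3, a claudin of the tight junction, was the 1 of 15 tight junction genes that passed, at 96.8, 105 and 94.6 FPKM, against 129.7, 121 and 147 FPKM (adjusted p = 0.0497). It passed without control replicate 2 (0.0493) and not without each of the others (0.0795 to 0.207). Among 31 adherens junction genes, the phosphatase Ptprf was lower (64.6 ± 4.29 and 90.5 ± 6.42 FPKM, SD, n = 3 each, adjusted p = 0.0123, but 0.0802 without TAI replicate 3 and 0.0564 without control replicate 3) and the activin receptor Acvr1b was higher (20.0 ± 1.44 and 15.9 ± 0.799 FPKM, SD, n = 3 each, adjusted p = 0.0484). Acvr1b passed without TAI replicate 1 (0.0364) and not without each of the others (0.0632 to 0.223). None of 23 insulin receptor signaling genes passed, and Npc1l1, which takes up cholesterol, was the 1 of 21 lipid absorption genes that passed, with a log2 fold change of -0.32 ± 0.08. It passed without control replicate 2 (0.0206) and not without each of the others (0.103 to 0.194). In all, 29 of 61 lists held at least 1 gene past the threshold, and 191 of the 247 genes belong to none of the lists. Of the 877 list genes tested, 40 were higher and 16 lower, against 1.20% and 0.901% of all genes. Some lists share members, such as Zg16 and Fkbp5, and all were chosen with earlier results known. The count of lists therefore does not measure the breadth of the response.

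**Figure D4:**
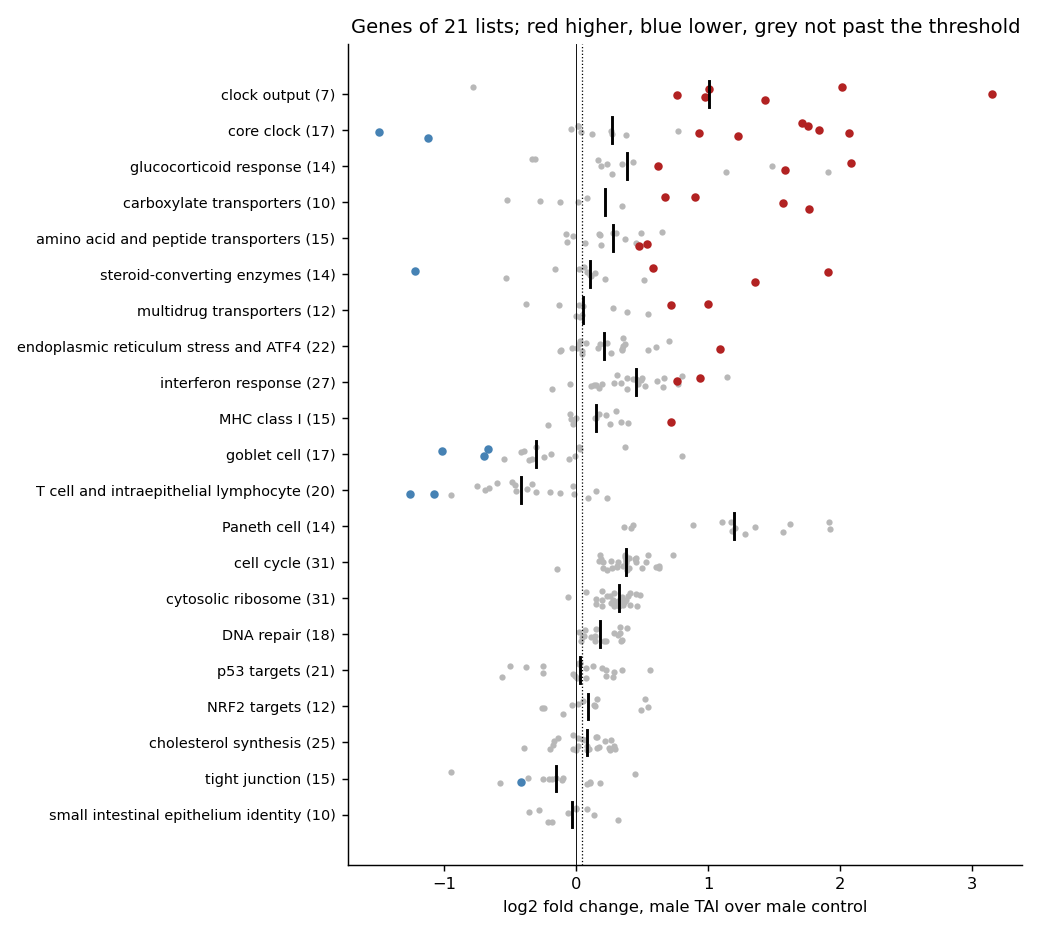
Log2 fold change of male TAI over male control (horizontal axis) for the tested genes of 21 lists (rows, number of genes in brackets), with the list median (black bar) and the median of all genes (dotted line, 0.05). The clock lists spread widest, Paneth cell genes lie to the right with none past the threshold, and most goblet cell and lymphocyte genes lie to the left.

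The change was then set against that of female mice exposed to the same dose. In female mice 49 genes were higher and 40 lower after TAI than in female control mice, 0.756% of the genes tested. The difference between the male and the female change, tested gene by gene, passed for 157 genes (1.33%), and 107 of these were among the 247 genes that had changed in males. The same male libraries enter both tests, so that this overlap is in part built in. Only 10 genes passed in both sexes, 4.05% of the male and 11.2% of the female genes, and 8 of them ran in opposite directions. Of the 141 genes higher in males, 60 had a female change above 0, against 71.8% of all genes, and of the 106 genes lower in males, 49 had a female change below 0, against 28.2% of all genes. Across all genes tested, which are not independent replicates, the male and female changes had a Pearson r of 0.32. Leaving out each of the 12 libraries in turn gave 87 to 184 genes that differed, 71 of the 157 in each of the 12 fits, and weighting groups by their own spread gave 65.

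Most clock genes past the threshold in males were among these. Of the 14 that passed in males, 12 had a change that differed from the female one, and none of the 24 passed in females. The male libraries enter both the choice of the 14 and the test of the difference. The female change of Dbp was -0.04 on the log2 scale, with 11.8, 27.7 and 16.4 FPKM in irradiated and 24.4, 9.19 and 25.6 FPKM in control females (difference of male and female change 3.18 ± 0.45, adjusted p = 0.00179). Per3 had 3.59, 4.99 and 3.17 FPKM in irradiated females, against 5.31, 4.72 and 5.60 FPKM in control females (difference 2.42 ± 0.25, adjusted p = 0.000161). Female control mice thus had more Dbp and Per3 than male control mice. Of the 14 genes, 13 had all 15 libraries outside the male control group beyond its range: in these, Dbp lay at 9.19 to 67.3 FPKM, Tef at 12.7 to 35.2 FPKM and Arntl at 2.19 to 11.5 FPKM. Over all genes tested this held for 234 (1.99%), and the male control libraries enter both this count and the choice of the 14 genes. In males given simvastatin after TAI, Dbp had 46.3, 55.8 and 67.3 FPKM and Arntl 2.68, 3.40 and 2.19 FPKM.

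Among transporters and enzymes, some passed in both sexes in opposite directions. Slc5a12 was higher in irradiated than in control males and lower in irradiated than in control females, with 97.2, 84.4 and 64.9 FPKM against 159, 141 and 148 FPKM in females (female change -0.87, adjusted p = 0.00634, difference 1.77 ± 0.17). Slc23a1 had 21.2, 24.6 and 16.4 FPKM in irradiated females, against 35.1, 30.0 and 33.0 FPKM in control females (female change -0.65, adjusted p = 0.0440), and Hsd3b3 had 4.12, 4.22 and 4.32 FPKM, against 9.88, 8.29 and 8.74 FPKM (female change -0.93, adjusted p = 0.00254). Aldh18a1, the first enzyme of proline synthesis, ran the other way: it had 39.3, 39.0 and 44.3 FPKM in irradiated and 65.2, 61.7 and 68.7 FPKM in control males, and 59.2, 60.0 and 48.8 FPKM in irradiated and 35.7, 37.1 and 30.5 FPKM in control females (difference -1.35 ± 0.13, adjusted p = 0.000161). For Slc5a12, Slc23a1 and Hsd3b3, the irradiated mice of both sexes were nearer each other than the control mice were. For Pck1, with 103, 187 and 111 FPKM in irradiated and 131, 101 and 117 FPKM in control females, the female change of 0.15 did not pass and the difference between the sexes did (adjusted p = 0.00801). The goblet cell genes Zg16, Clca1 and Muc2 did not pass the test of a difference between the sexes (adjusted p = 0.276, 0.275 and 0.0938).

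**Figure D5:**
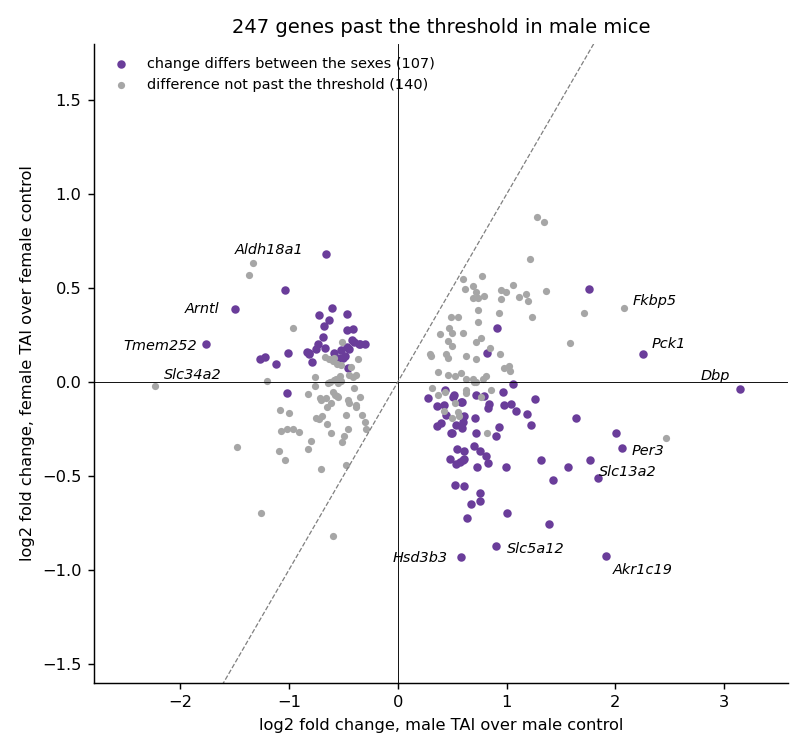
Log2 fold change of TAI over control in male mice (horizontal axis) and in female mice (vertical axis) for the 247 genes past the threshold in males, with 107 genes whose change differed between the sexes in purple and the line of equal change dashed. Most points lie near 0 on the female axis, and Slc5a12, Hsd3b3 and Aldh18a1 lie on opposite sides of 0 in the sexes.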

How the data were processed

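Messenger RNA of the small intestine was measured in 18 libraries of 6 groups, which were taken from the sample labels. The FPKM are those the authors deposited. The submitters' processing notes list Cuffdiff 2.1.1, Bowtie2 2.2.8, StringTie 1.3.1 and HISAT2 but no role for any of them. The sources used here do not name the build behind the FPKM. FPKM hold no read totals, so depth is known only relative to male control replicate 1, from the steps between low values (0.896 to 1.33 in the 6 libraries), and no interval of counting error can be given. Libraries were made with the NEBNext Ultra kit, and whether reads were assigned by strand is not stated.

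Transcripts were summed by gene symbol (25 of 21928 symbols hold several identifiers). Values were analysed as log2(FPKM + 1) in limma 3.58.1 (R 4.3.3). The model had a mean for each group and used all 18 libraries, and its residual degrees of freedom were 12. The prior variance followed the mean level. Benjamini-Hochberg adjustment ran over the 11767 genes tested, and SE are those of the model, which was tested on simulated data. The members and lists were chosen with earlier results of these data known. Named genes were the 15 past the threshold with the largest rise and the 15 with the largest fall on the log2 scale. The 10 largest changes in mean FPKM in each direction, list members past the threshold, all clock genes and identity markers were added. So were genes followed by RT-PCR (as RNA) or ELISA (as protein), and the 10 smallest p of the difference between the sexes. Some genes of this rule are given by counts alone, and a few are not reported here. Alternatives were other pseudocounts, filters, scalings and variance models, the compared libraries alone, a replicate block, single transcripts, and fits that omit a library. Positions came from GENCODE M21 (21816 of 21956 identifiers matched) and promoters from RefSeq. Python 3.11.15 and matplotlib 3.10.9 served for tables and plots.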

Additional observations from a re-analysis of the deposited data

Results flagged for a closer look

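Groups of 3 were not tested for single outlying libraries. The results here are those whose change after TAI differed between male and female mice by a test of the difference itself, which passed for 157 genes. Differences are the male minus the female log2 fold change.

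Among clock genes, the difference was 3.18 for Dbp, 2.42 for Per3, 2.35 for Per2, 2.28 for Tef, 1.95 for Hlf, 1.70 for Wee1, 1.45 for Nr1d2, 1.26 for Per1, 1.17 for Cry2 and 1.097 for Usp2, and it was -1.88 for Arntl and -1.22 for Npas2. Of these 12 differences, 11 passed in each of the 12 fits that left out 1 male or female library. The exception was Npas2, which missed the threshold without TAI replicate 3, control replicates 1 and 3 of the males, and TAI replicates 1 and 2 and control replicates 1 and 3 of the females (adjusted p up to 0.0805).

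Among transporters and enzymes with a difference above 0, it was 2.83 for Akr1c19, 2.18 for Slc13a2, 2.099 for Pck1, 2.02 for Slc13a1, 1.77 for Slc5a12, 1.51 for Hsd3b3, 1.45 for Abcb1a, 1.39 for Adh1, 1.32 for Slc23a1, 1.12 for Glud1, 0.97 for Slc15a1, 0.89 for Slc7a15, 0.79 for Abcb1b and 0.76 for Enpep. Slc13a1 and Abcb1b passed in 7 and Glud1 in 3 of the 12 fits, and the others named here in each. Of other genes, it was 1.83 for Ifi27l2a (3 of the 12 fits), 1.24 for Herpud1 and 0.79 for Itga6.

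In the other direction, the difference was -1.96 for Tmem252, -1.53 for Glipr2, -1.39 for Atpaf1, -1.36 for Hsd17b2, -1.35 for Aldh18a1, -0.996 for Egr1, -0.97 for Pnp2, -0.90 for Ppp1r14d, -0.64 for Cldn3 and -0.62 for Ptprf. Glipr2 passed in 8, Ptprf in 4 and Cldn3 in 2 of the 12 fits, and the others named here in each.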

How the results depend on the processing

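The alternatives fitted to genes and the fits without 1 library gave 6 core clock and 4 to 6 clock output genes higher. In the list of carboxylate transporters they gave 3 to 4 genes higher. These lists were not counted on transcripts. A fit of the compared libraries alone gave 81 genes higher, 33 lower, 56 that differed between the sexes and 0 goblet cell genes lower. Transcripts in place of genes gave 78 genes higher, 56 lower and 83 that differed. Groups weighted by their own spread gave 65 that differed. Without 1 library, 72 to 121 genes were higher, 33 to 104 lower, and 87 to 184 differed between the sexes. The lowest counts came without TAI replicate 3, and for the differences also without female control replicate 1. The fits without a female library were added after seeing the data. Glucocorticoid response genes higher were 1 to 3 and goblet cell genes lower 0 to 4. Same-numbered TAI and control libraries deviated from their group means with correlations of 0.21, -0.11 and -0.06. Libraries of unlike number gave -0.29 to 0.35. So few values cannot show whether the numbers pair the mice, and the labels do not say. With the replicate block, 141 genes were higher, 100 lower and 147 differed, with 5 goblet cell genes lower. Other pseudocounts, filters, scalings and variance models kept the counts of genes higher and lower in males within 1.5 times (97 to 156 higher, 90 to 137 lower), and no named gene past the threshold changed its direction in any alternative. The cause of these shifts was not tested. With 3 libraries a group and FPKM without read totals, changes of genes of few FPKM are the least certain.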
